A study of Homo sapiens with 12 samples.

Results

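Untreated enterocyte cultures made from human induced pluripotent stem cells were profiled by RNA sequencing, and the levels of all protein-coding genes in them are described here without any comparison to treated cultures. Enterocytes are the absorptive cells that line the intestine. The cells came from the line RPChiPS771 and were labelled as iPSC-derived enterocytes kept from day 15 to day 23 in a medium named M3 without VD3, which stands for vitamin D3. Their labels do not mention VPA, the other agent of the study, so its absence is read from the group name Control. These 3 Control libraries are 3 of 12 in the series. The other 9 received 1 µM VD3, 100 µM VPA (valproic acid, an inhibitor of histone deacetylases) or both, with 3 libraries in each of the 4 groups, and they are not used below. All libraries share the same cell line, so a single genetic background is described. The labels do not say whether the 3 libraries came from separate cultures, so the spread between them may be technical. RNA was purified on poly-T beads before sequencing. Each library pools the RNA of many cells, so fewer cells of a type and less RNA per cell cannot be told apart.

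Levels are given in FPKM, fragments scaled by the authors to gene length and library size, so that genes of different length can be set side by side. The Control libraries held 32619590, 43998467 and 41212724 fragments in genes, and protein-coding genes took 97.9% to 98.0% of them. A gene was called expressed where it reached 1 FPKM in every Control library, which is 167 fragments in the shallowest library for an expressed gene of median length (4964 bases). Errors are the SD over the 3 libraries, n = 3 throughout. Gene coordinates are GRCh38.

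Enterocytes mature as they leave the dividing base of the intestinal crypt and move up the villus. They build a brush border of microvilli that carries digestive enzymes and nutrient carriers, and they package absorbed fat into lipoproteins. Their identity depends on CDX2, HNF4A and GATA factors. The intestine and the liver both arise from the embryonic gut tube, share many of these factors and both secrete apolipoproteins. Alpha-fetoprotein (AFP) and albumin (ALB) are the best known secreted proteins of the fetal yolk sac and liver, and sucrase-isomaltase (SI) is a digestive enzyme of mature enterocytes.

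The promoters of 4 expressed genes are shown to let the levels be read beside the DNA at each start. AFP and ALB are secreted proteins, FABP1 is the fatty acid carrier of liver and intestine, and SI is at the edge of the expression call. Each window runs from 250 bases before to 50 bases after the RefSeq start in GRCh38.p14, on the gene's own strand. Capitals mark matches on either strand to the TATA box TATAAA, where transcription machinery assembles,, the HNF1 half-site GTTAAT and the CDX core TTTATG. Positions give the leftmost base counted from the start. The windows lie at chr4:73435971-73436270 on the plus strand for AFP, at chr4:73404037-73404336 on the plus strand for ALB, at chr2:88128013-88128312 on the minus strand for FABP1 and at chr3:165078447-165078746 on the minus strand for SI. For AFP and ALB this start lies downstream of the start of the GENCODE gene given with the levels.
AFP: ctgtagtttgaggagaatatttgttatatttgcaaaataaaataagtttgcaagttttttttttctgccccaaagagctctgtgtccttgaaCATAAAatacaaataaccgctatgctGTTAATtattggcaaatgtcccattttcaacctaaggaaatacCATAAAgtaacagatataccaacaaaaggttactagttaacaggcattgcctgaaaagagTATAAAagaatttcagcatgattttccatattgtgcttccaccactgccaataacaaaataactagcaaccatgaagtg
ALB: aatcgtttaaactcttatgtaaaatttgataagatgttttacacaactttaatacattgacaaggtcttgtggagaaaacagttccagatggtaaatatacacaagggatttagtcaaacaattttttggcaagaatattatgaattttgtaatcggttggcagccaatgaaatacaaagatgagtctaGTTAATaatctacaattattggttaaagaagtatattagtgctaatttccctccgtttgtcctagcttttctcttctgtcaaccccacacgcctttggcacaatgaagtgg
FABP1: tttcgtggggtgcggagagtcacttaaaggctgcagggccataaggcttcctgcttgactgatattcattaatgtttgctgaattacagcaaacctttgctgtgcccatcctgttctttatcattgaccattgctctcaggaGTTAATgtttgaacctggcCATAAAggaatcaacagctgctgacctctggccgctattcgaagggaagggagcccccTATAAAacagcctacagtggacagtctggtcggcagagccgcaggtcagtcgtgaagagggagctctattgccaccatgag
SI: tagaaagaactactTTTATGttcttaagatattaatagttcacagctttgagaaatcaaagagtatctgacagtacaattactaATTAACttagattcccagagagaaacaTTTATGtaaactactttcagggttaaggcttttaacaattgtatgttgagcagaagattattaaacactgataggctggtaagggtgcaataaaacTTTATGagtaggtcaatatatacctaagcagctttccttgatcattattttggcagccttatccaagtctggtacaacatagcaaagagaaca

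The AFP and FABP1 windows hold all 3 motifs. In AFP the TATA box began at -29, the HNF1 half-site at -132, and the CDX core, read on the other strand, at -158 and -89. In FABP1 the TATA box began at -31, the HNF1 half-site at -108 and the CDX core at -89, again on the other strand. The ALB window held 1 of the motifs, the HNF1 half-site, at -61. SI held the CDX core 3 times, at -236, -139 and -43, and the HNF1 half-site on the other strand at -166. RefSeq windows were matched to 14867 of 19906 protein-coding genes, and among these 12.2% held the TATA box, 7.25% the HNF1 half-site and 10.2% the CDX core. Among the 69 of the 100 highest genes with a window, 14 held the TATA box, 8 the HNF1 half-site and 8 the CDX core. The HNF1 half-site was in 8 of 21 windows of the hepatocyte secreted proteins described below, and in 8 of 37 windows of the brush border, microvillus and lipid absorption genes. In the same windows the CDX core was in 4 of 21 and 6 of 37, and the TATA box in 4 of 21 and 11 of 37. The motifs and the genes shown were chosen after the levels were seen, motifs were counted separately even where their letters overlap, and a match describes letters, not binding.

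AFP was the highest of all 19906 protein-coding genes. Its transcript (ENSG00000081051, chromosome 4, 73431138 to 73456174) stood at 27323, 26514 and 27021 FPKM in Control 1, 2 and 3, a mean of 26953 ± 409. All 3 libraries lay above every library of every other protein-coding gene. AFP alone took 9.40% ± 0.0961 of all protein-coding fragments and 8.96% ± 0.133 of the summed FPKM. FTL, the light chain of the iron store ferritin, came next at 18082, 17042 and 16712 FPKM. MT-CO1, a subunit of cytochrome c oxidase encoded in mitochondrial DNA, followed at 8268 ± 261 FPKM, although 49.5% of its 50-base windows also occur in other annotated genes.

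APOA1, the main protein of high-density lipoprotein (ENSG00000118137, chromosome 11, 116835751 to 116837950), was the fourth gene at 7626, 6991 and 6136 FPKM. TTR, which carries thyroid hormone and retinol-binding protein, was the fifth at 6666, 6380 and 7223 FPKM. These libraries overlapped, so the order of APOA1 and TTR is not set beyond their spread. The other members of the 10 highest were MT-CO2, MT-ND4, MT-ND6, MT-ND3 and MT-ND4L, subunits of the respiratory chain, at 4965 to 5998 FPKM. The 10 highest genes held 31.0% ± 0.368 of the summed FPKM and the 100 highest held 52.2% ± 0.119.

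The 30 highest genes fell into a few kinds. A total of 12 were mitochondrially encoded, those named above and MT-ATP6, MT-ND2, MT-CO3, MT-ND1, MT-ND5 and MT-CYB, and 3 were ribosomal proteins, RPL41, RPL13A and RPS12. A total of 9 were proteins that hepatocytes secrete or apolipoproteins. Besides AFP, APOA1 and TTR these were APOE at 2091 ± 273 FPKM, the protease inhibitor SERPINA1 at 1707 ± 54.6, ALB at 1500 ± 70.4, APOA2 at 1213 ± 91.6, the retinol carrier RBP4 at 1042 ± 30.2 and APOC3 at 1040 ± 225. ALB (ENSG00000163631, chromosome 4, 73397114 to 73421412) stood at 1559, 1518 and 1422 FPKM. The remaining genes were FTL, the brain-type creatine kinase CKB at 2447 ± 160, the translation factor EEF1A1 at 1461 ± 80.8, the glutathione transferase GSTP1 at 1309 ± 74.5 and the actins ACTG1 at 1154 ± 82.5 and ACTB at 908 ± 61.3. Of the 29 neighbouring pairs in this order, 18 overlapped in their ranges, so their order is not set beyond the spread. Of genes on the epithelial, brush border, microvillus, carrier and lipid absorption lists, APOA1 and APOC3 alone were among these 30.

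**Figure D1:**
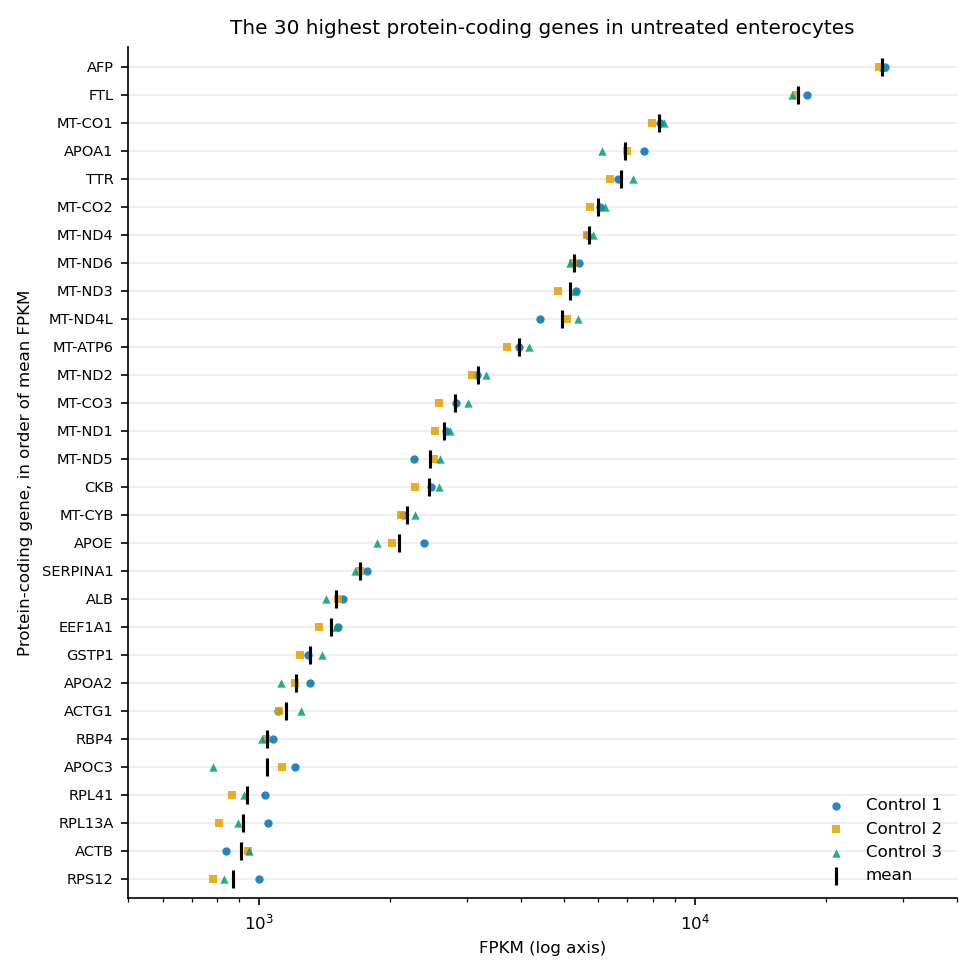
FPKM on a log axis for the 30 protein-coding genes with the highest mean, in order of the mean; points are the 3 Control libraries and bars their mean. AFP stands apart at the top at 26514 to 27323 FPKM, and many neighbours lower down overlap.

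The expression call was met by 9777 of 19906 protein-coding genes (49.1%). Of these, 26 had a mean of 1000 FPKM or more, 279 lay from 100 to 1000, 3206 from 10 to 100 and 6266 from 1 to 10. Another 7335 genes had some fragment without meeting the call, and 2794 (14.0%) had none in any Control library. The median was 1.03 FPKM over all protein-coding genes and 6.31 FPKM over the expressed ones. A zero is not always a silent gene in this table. Of 350 genes whose exonic bases lie almost wholly, at least 99%, inside another gene, 316 had no fragment. This applies below to CIDEB, a lipid droplet protein listed at 0 with 100% of its exonic bases in another gene. The 2 entries of IGF2 overlap other genes less completely, by 75.01% and 90.02%, and their levels are also uncertain.

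All 15 epithelial genes and all 15 microvillus genes were expressed, as were 27 of 28 intestinal transcription factors and 26 of 30 intestinal carriers. Among hepatocyte genes, 22 of 28 secreted proteins but 10 of 26 metabolic genes were expressed. No listed gene of the squamous foregut, of lung and thyroid, or of exocrine and endocrine pancreas met the call, of 11 in each list, and no listed blood gene did, of 8. The background share for these counts, and for every count of listed genes below, is the 49.1% above.

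**Figure D2:**
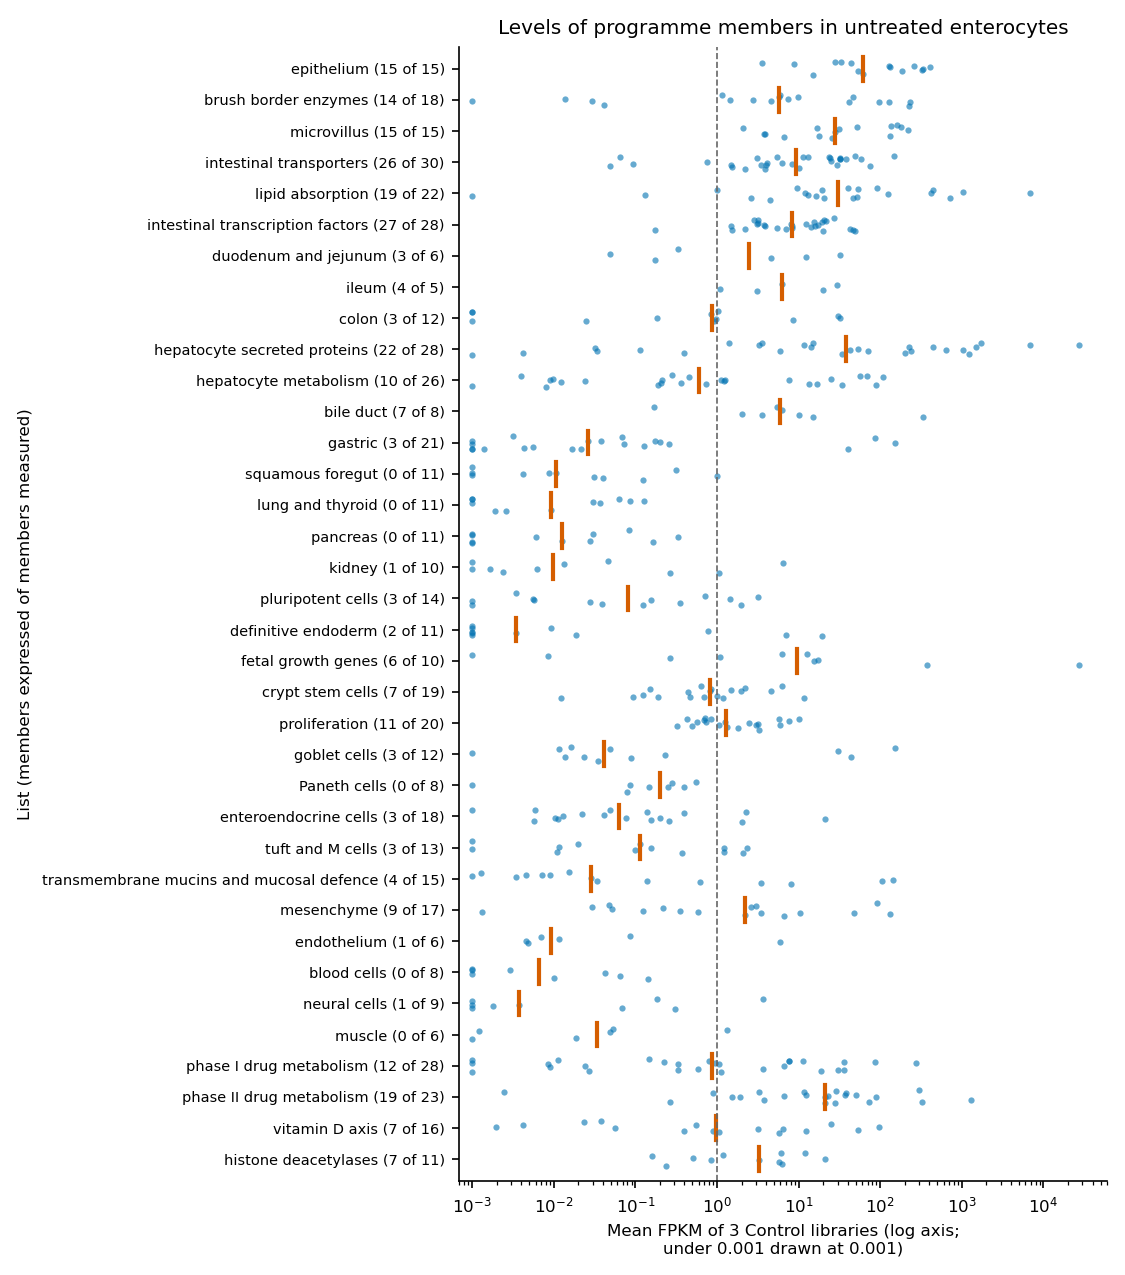
Mean FPKM over the 3 Control libraries on a log axis for each gene (points) of 36 lists, with the list median as an upright bar and a dashed line at 1 FPKM; numbers beside the names are members expressed of members measured. Medians run from 61.0 FPKM for epithelium to 0.00347 FPKM for definitive endoderm.

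Epithelial identity was read from cell adhesion and keratin genes. EPCAM, the epithelial cell adhesion molecule, stood at 401, 395 and 426 FPKM, and CDH1, the adherens junction cadherin, at 56.9, 58.8 and 67.3 FPKM. The keratins of simple epithelia were next to EPCAM, with KRT19 at 330 ± 43.3 and KRT8 at 328 ± 40.3 FPKM. The other 11 members lay from 3.56 FPKM for KRT20, a keratin of mature surface cells, to 260 FPKM for KRT18. KRT20 was uneven, at 2.56, 2.20 and 5.94 FPKM. The list median was 61.0 FPKM, against 1.03 over all protein-coding genes. CDH1 was 1.19 ± 0.0541 times the level of CDH2, the cadherin of mesenchyme, nerve and liver.

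All 15 microvillus genes were expressed, 11 of them at a mean of 10 FPKM or more, with a median of 27.8 FPKM. The scaffold gene SLC9A3R1 (231, 210 and 209 FPKM), the adhesion protocadherin CDHR5 (183, 169 and 190) and ezrin, encoded by EZR (160, 166 and 159), led the list. CDH17, a cadherin of the intestinal lining, stood at 119, 130 and 164 FPKM. VIL1, which encodes the actin bundler villin, stood at 129, 132 and 136 FPKM, with 44.0% of its exonic bases shared with another gene. The motor MYO1A was at 27.8 ± 3.73 FPKM and CDHR2, the partner of CDHR5, at 16.6 ± 2.69. The lowest of the 15 was the actin bundler PLS1 at 2.09 FPKM. In all 3 libraries CDHR5 lay above CDHR2 by a wide margin.

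Brush border enzymes ranged from 229 ± 15.2 FPKM for MEP1A to no fragment for TMPRSS15, with a median of 5.84 FPKM. The peptidases MEP1A (221, 218 and 246 FPKM), ANPEP (217, 219 and 236) and DPP4 (115, 127 and 139) led the 18 genes, of which 14 were expressed. The intestinal alkaline phosphatase ALPI stood at 9.97, 9.49 and 10.2 FPKM, and ranked 3540 among all protein-coding genes. Lactase, encoded by LCT, stood at 4.74, 5.17 and 4.02 FPKM. SI was just above the call at 1.18, 1.05 and 1.21 FPKM from 865 fragments in all, so LCT was 4.09 ± 0.798 times SI and ANPEP 196 ± 12.05 times. MGAM, the maltase-glucoamylase gene, was below the call at 0.0414 ± 0.00386 FPKM. TMPRSS15, the enteropeptidase that activates trypsinogen, had no fragment, which allows up to 0.00573 FPKM over the group.

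Of 30 intestinal carriers, 26 were expressed, with a median of 9.27 FPKM. SLC7A7, a basal exporter of cationic amino acids, was the highest at 162, 151 and 128 FPKM, followed by the efflux pump ABCG2 at 74.5 ± 5.11. SLC15A1, the peptide carrier PEPT1, stood at 54.0, 57.5 and 61.8 FPKM. The neutral amino acid carrier SLC6A19 was at 3.27, 3.04 and 3.95 FPKM and the ileal bile acid carrier SLC10A2 at 2.76, 2.86 and 3.76. SLC5A1, the sodium-glucose carrier SGLT1, lay below the call in every library at 0.827, 0.787 and 0.657 FPKM. The 3 others below it were ABCG8, ABCG5 and CYBRD1, at 0.0485 to 0.0938 FPKM. Facilitated sugar carriers were higher than SLC5A1, with SLC2A2 at 31.8 and SLC2A5 at 10.2 FPKM.

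Among the intestinal lists, lipid absorption held the highest levels, led by apolipoproteins, which the liver also secretes. Of its 22 members 19 were expressed, with a median of 30.6 FPKM. After APOA1 came APOC3, at 1207, 1128 and 785 FPKM, and APOA4, at 798, 872 and 488. Both were lowest in Control 3 by more than the gap between the other libraries. For APOA4, 43.1% of exonic bases lie in another gene. APOB, the backbone protein of chylomicrons, stood at 422, 456 and 434 FPKM, and MTTP, which loads it with fat, at 51.2, 50.7 and 53.1. The retinol carrier RBP2 was at 113, 98.9 and 63.7 FPKM.

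The fatty acid carriers stood far apart. FABP1 was at 411, 376 and 477 FPKM, while the intestinal carrier FABP2 was at 3.26, 2.22 and 2.44, so that their ratio was 164 ± 35.1. FABP1 serves both liver and proximal gut, and FABP2 the gut. MOGAT2, the intestinal monoacylglycerol acyltransferase that rebuilds fat after uptake, was at 1.23, 0.893 and 0.872 FPKM and did not meet the call. CD36, a fatty acid receptor, was at 0.132 FPKM. DGAT1, the last enzyme of triglyceride synthesis, was at 123 FPKM and DGAT2 at 19.5.

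**Figure D3:**
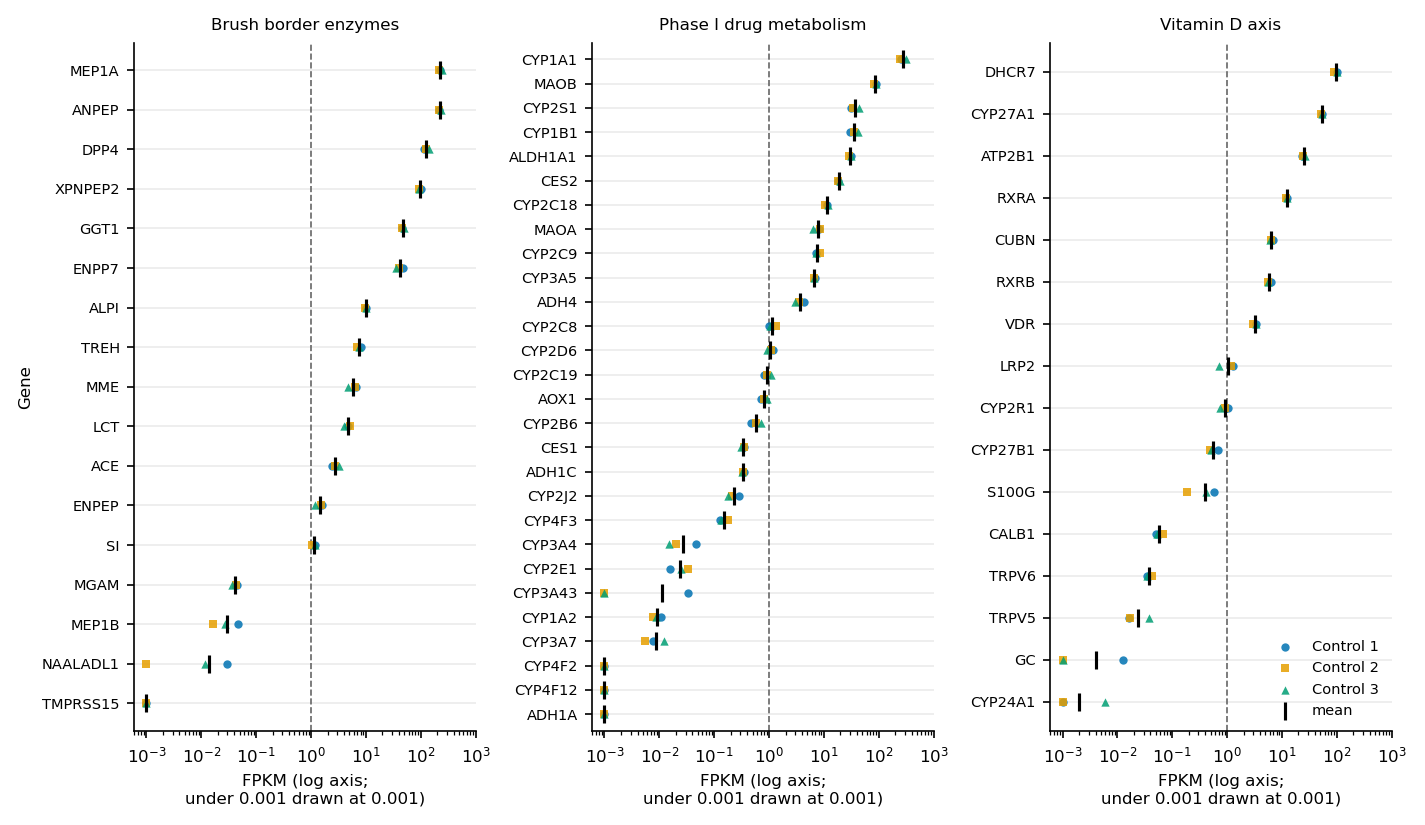
FPKM on log axes for 17 of the 18 brush border enzymes, phase I drug enzymes and genes of the vitamin D axis, 1 gene per row; points are the 3 Control libraries, bars their mean, the dashed line is 1 FPKM and values under 0.001, zeros with them, are drawn at 0.001. MEP1A, ANPEP, DPP4 and CYP1A1 stand above 100 FPKM while MGAM, CYP3A4 and CYP24A1 stand far below 1.

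Of 28 intestinal transcription factors, 27 met the call, with a median of 8.30 FPKM. CDX2, the homeobox factor that sets intestinal identity (ENSG00000165556), stood highest at 45.7, 46.6 and 56.6 FPKM. HNF4A, a nuclear receptor of gut and liver, stood at 44.9, 46.1 and 47.4 FPKM, and the pioneer factor FOXA1 at 42.6, 42.5 and 41.5. The ranges of CDX2 and HNF4A overlapped. The paralogues were lower, CDX1 at 3.18 ± 0.642 and HNF4G at 2.85 ± 0.111 FPKM, giving ratios of 15.8 ± 1.28 for CDX2 to CDX1 and 16.2 ± 0.499 for HNF4A to HNF4G. ISX, which restrains vitamin A uptake in the gut, was at 1.67, 2.38 and 2.65 FPKM. ONECUT2 was the single member below the call, at 0.173 FPKM.

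CDX2 and HNF4A were the fifteenth and sixteenth of 1542 factors in the table's own transcription factor column, of which 643 (41.7%) were expressed. The highest was YBX1, a nucleic acid binding protein, at 311 ± 21.7 FPKM, followed by ID1, a target of bone morphogenetic protein signalling, at 210 ± 15.6, and ATF4, a factor of the stress response, at 130 ± 8.23. This ranking and the families after it were added after the levels were seen. Of 45 nuclear receptors 25 were expressed, of 47 forkhead factors 14, and of 190 homeobox factors 28. Among the homeobox genes below CDX2 was PITX1, better known from pituitary and limb, at 28.5 ± 2.85 FPKM.

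The regional markers did not point to a single gut segment. The proximal factor GATA4 was at 12.6, 11.4 and 12.6 FPKM and the iron exporter SLC40A1 at 32.2 ± 2.22, and LCT was also expressed, but PDX1, a factor of duodenum and pancreas, was at 0.334 ± 0.0961 and CYBRD1, the duodenal iron reductase, at 0.0485. Beside 49.1% of all protein-coding genes, 4 of the 5 ileal genes were expressed. Among them the bile acid exporter subunit SLC51B stood at 29.6 ± 2.39 FPKM, GATA5 at 19.9 ± 1.75, SLC51A at 6.20 ± 0.896 and SLC10A2 at 3.13 ± 0.549. The ileal bile acid binder FABP6 stood at 0.739, 0.653 and 1.85 FPKM, above the call in Control 3 and below it in the other libraries.

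Of 12 colon genes, 3 were expressed, beside 49.1% of all protein-coding genes. All 3 are also found in small intestine or other epithelia. The chloride exchanger SLC26A3 stood at 32.5 ± 5.63 FPKM, and the carbonic anhydrases CA2 and CA4 at 30.1 ± 3.67 and 8.58 ± 1.35. The water channel AQP8 was at 1.15, 0.966 and 0.626. CA1 was at 0.0249 ± 0.0237 FPKM, and MS4A12 had no fragment, which allows up to 0.0132 FPKM.

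HOX genes, which mark position along the body axis, were low. Of 39 HOX genes 4 met the call, 10.3% against 49.1% of all protein-coding genes. These were HOXC6 at 2.99, 3.85 and 4.98 FPKM, HOXC8 at 3.19, 2.86 and 4.13, HOXA3 at 1.32, 1.37 and 1.13 and HOXB7 at 1.15, 1.05 and 1.15. The ranges of HOXC6 and HOXC8 overlapped, as did those of HOXA3 and HOXB7. None of the 9 HOXD genes was expressed. HOXD13 and HOXD3 had 3 fragments each over the group, HOXD1 and HOXD8 had 1 each, and HOXA6, HOXB1, HOXC12, HOXC13, HOXD4 and HOXD12 had none.

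**Figure D4:**
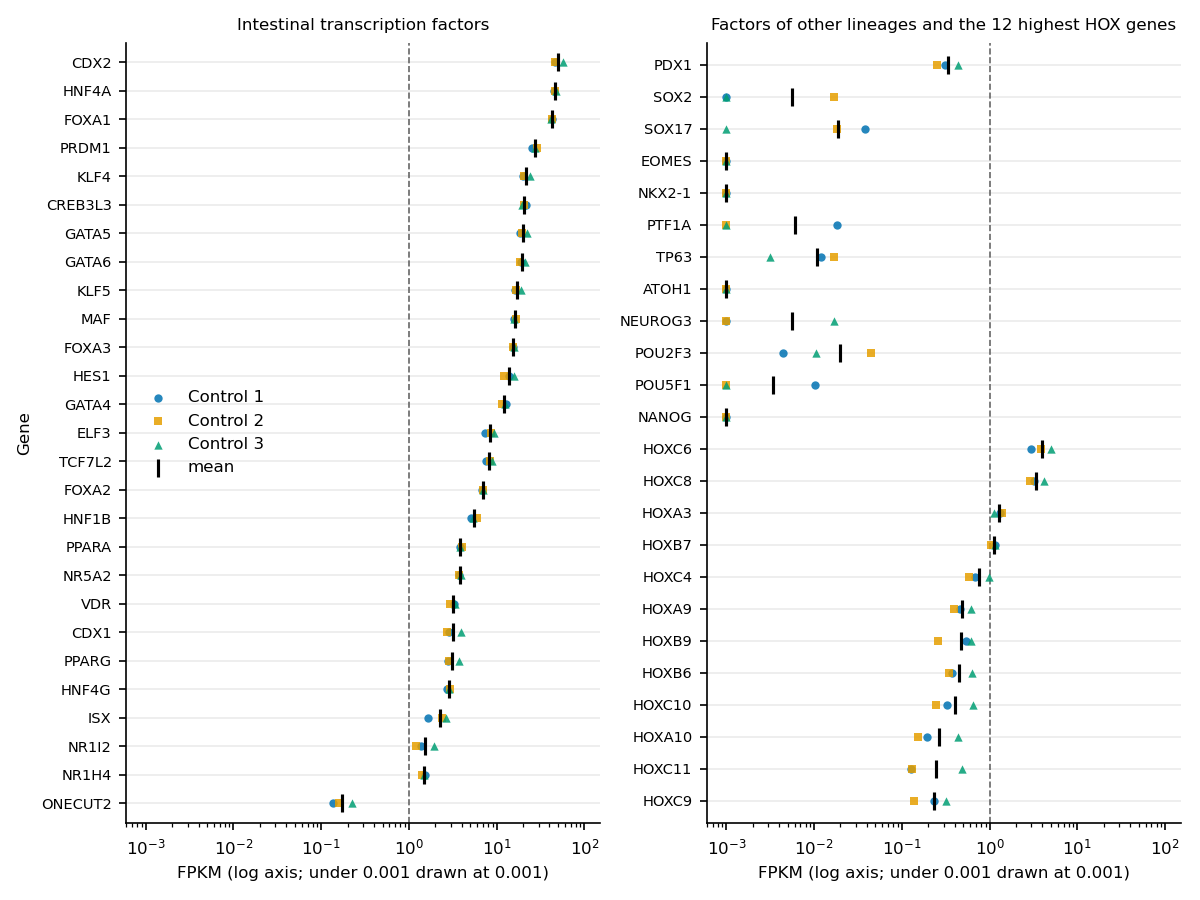
FPKM on log axes for 27 of the 28 intestinal transcription factors (left), and for factors of other lineages and the 12 highest HOX genes (right); points are the 3 Control libraries, bars their mean, the dashed line is 1 FPKM and values under 0.001, zeros with them, are drawn at 0.001. CDX2, HNF4A and FOXA1 lie above 40 FPKM in every library, and the defining factors of other lineages shown lie at or below 0.440 FPKM.

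Secreted proteins of the hepatocyte, fetal and adult ones together, made up 13.7% ± 0.206 of the summed FPKM over 28 genes, and 4.73% ± 0.0860 without AFP. The level of AFP was 18 ± 0.872 times that of ALB. Below TTR, SERPINA1 and ALB stood the fibrinogen chains, with FGB at 546, 664 and 690 FPKM and FGA at 203, 235 and 241. AHSG, a serum glycoprotein, was at 272, 251 and 201 FPKM and APOH at 17.5, 14.3 and 13.7. Of the 28 genes, 22 were expressed with a list median of 38.5 FPKM. The 6 others were A1BG, HP, ITIH3, FETUB, CP and GC. A1BG had no fragment but 50.9% of its exonic bases lie in another gene. Haptoglobin, encoded by HP, was at 0.398 FPKM, and GC, the serum carrier of vitamin D, had 1 fragment in all 3 libraries together. Both are abundant products of the adult liver.

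Metabolic genes of the hepatocyte were expressed in 10 of 26 cases (38.5%), with a median of 0.598 FPKM, and took 0.142% ± 0.00626 of the summed FPKM. The asialoglycoprotein receptor subunit ASGR1, a surface receptor best known from liver, was the highest at 114, 102 and 106 FPKM. The glucuronosyltransferase UGT2B7 stood at 89.0, 89.8 and 91.1 FPKM, and CPS1, the entry enzyme of the urea cycle in liver and gut, at 75.8, 73.8 and 57.9. The sodium bile acid carrier of the liver, SLC10A1, was among the expressed genes at 16.7 FPKM. The defining enzymes and carriers of the adult liver were far lower. CYP7A1, the rate-limiting enzyme of bile acid synthesis, had no fragment, which allows up to 0.00822 FPKM, and CYP1A2 had 3 fragments. CYP2E1 was at 0.0242 FPKM, the tyrosine aminotransferase TAT at 0.284 and the uptake carrier SLCO1B1 at 0.189. The bile salt pump ABCB11 was at 0.692, 1.11 and 1.91 FPKM, below the call in Control 1 and above it in the other libraries.

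The bile duct list overlaps the gut epithelium, and 7 of its 8 genes were expressed. KRT19 led it, followed by the chloride channel CFTR at 15.1 ± 0.514 FPKM and SOX4 at 10.2 ± 1.09. KRT7, the keratin that separates duct from intestine, stood at 3.58 FPKM, and KRT19 was 96.0 ± 23.6 times as high. SPP1 was the member below the call, at 0.170 FPKM.

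Of 21 gastric genes 3 were expressed (14.3%), with a list median of 0.0262 FPKM. All 3 are products of mucous cells. AGR2, a disulfide isomerase that helps mucins fold, stood at 129, 120 and 211 FPKM. The trefoil peptide TFF1 stood at 79.2, 79.9 and 97.3 FPKM, and TFF2 at 41.8, 39.5 and 38.5. The other defining gastric genes were far lower. The junction gene CLDN18 was at 0.172 FPKM, the gland mucin MUC6 at 0.0689, and pepsinogen C, encoded by PGC, at 0.0383 from 10 fragments. The acid pump ATP4A had 2 fragments, and the surface mucin MUC5AC had 7 that all came from Control 3. GKN1 and the gastric lipase LIPF had none, which allows up to 0.0211 and 0.0103 FPKM.

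Of the genes listed for squamous foregut, lung and thyroid, pancreas and kidney, 1 met the call, CUBN. In the squamous foregut list the highest was KRT6A at 0.679, 1.27 and 1.10 FPKM, followed by SPRR3 at 0.313 ± 0.00779 and SPRR1A at 0.123 ± 0.131, and its defining genes TP63 and KRT5 had 10 and 4 fragments. In the lung and thyroid list the highest were TG at 0.127, PAX8 at 0.0854 and FOXJ1 at 0.0637 FPKM. Its defining factor NKX2-1 and the airway gene SCGB1A1 had no fragment, and the surfactant gene SFTPC had 12. Of pancreatic genes PDX1 was the highest, followed by INS at 0.163 (31.7% of its exonic bases lie in another gene) and PRSS1 at 0.0833 FPKM, while PTF1A had 1 fragment and CPA1 none. In the kidney list CUBN, a receptor shared by renal tubule and ileum, was expressed at 6.44 ± 0.453 FPKM. LRP2, its partner, was at 1.29, 1.18 and 0.705 FPKM, and the renal carrier SLC22A6 at 0.265. The defining renal gene SLC22A8 had 2 fragments, and UMOD had none.

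The pluripotent programme was silent in its core. NANOG had no fragment, which allows up to 0.00450 FPKM over the group, POU5F1 had 1 fragment and SOX2 had 2. LIN28A was at 0.0963, 0.1001 and 0.175 FPKM. The 3 of 14 listed genes that met the call were SALL4 at 3.18 ± 0.138 FPKM, LIN28B at 1.996 ± 0.454 and the DNA methyltransferase DNMT3B at 1.45 ± 0.130, all of which are also used in fetal tissues. Of 11 genes of definitive endoderm, the germ layer that forms the gut, GATA6 at 19.4 ± 1.26 and FOXA2 at 6.94 ± 0.186 FPKM were expressed, and both go on to act in the intestine. The next was KIT at 0.771 FPKM. SOX17 had 5 fragments, and CER1 and EOMES had none.

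Of 10 fetal growth entries 6 were expressed, beside 49.1% of all protein-coding genes. Below AFP, the heparan sulfate proteoglycan GPC3 stood at 391, 367 and 354 FPKM and the RNA-binding protein IGF2BP2 at 16.1, 17.8 and 17.8. PEG10 was at 15.6 FPKM, IGF2BP1 at 12.8 and IGF2BP3 at 6.30, so that all 3 members of the IGF2BP family were present. CYP3A7, the fetal form of CYP3A4, had 4 fragments, with 41.7% of its exonic bases in another gene.

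Of 19 crypt stem cell genes 7 were expressed (36.8%), and none of the defining ones was. LGR5, the stem cell receptor, stood at 0.164, 0.165 and 0.125 FPKM and OLFM4 at 0.174, 0.0583 and 0.137. ASCL2 was at 0.472 ± 0.246 FPKM and SMOC2 had 7 fragments, all in Control 2. The expressed genes were led by MYC at 11.6 ± 1.24 FPKM, SOX9 at 6.31 ± 0.450 and BMI1 at 4.55 ± 0.180. Of 20 proliferation genes 11 were expressed, with a median of 1.30 FPKM, close to the 49.1% and 1.03 FPKM of all protein-coding genes. They were led by PCNA at 10.3 ± 1.41, MCM3 at 7.53 ± 0.751 and MCM6 at 5.90 ± 0.895 FPKM, which act in DNA replication. The mitotic markers MKI67, at 0.431, 0.457 and 0.602 FPKM, and TOP2A, at 0.272, 0.331 and 0.688, stayed below the call, and both were highest in Control 3.

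Beside 49.1% of all protein-coding genes, 3 of 12 goblet cell genes were expressed. These were AGR2, the trefoil peptide TFF3 at 44.4, 41.9 and 45.7 FPKM and the mucus protein ZG16 at 31.9, 30.3 and 29.2. The secreted mucin MUC2, which defines goblet cells, stood at 0.0234, 0.0167 and 0.0647 FPKM, SPINK4 at 0.231 from 17 fragments and CLCA1 at 0.0117 from 5. ATOH1, the factor that starts the secretory lineage, had no fragment. Of 8 Paneth cell genes none was expressed, and the highest were ITLN2 at 0.555, LYZ at 0.399 and PLA2G2A at 0.284 FPKM. The defensins DEFA5 and DEFA6 had 13 and 4 fragments.

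Of 18 enteroendocrine genes 3 were expressed, beside 49.1% of all protein-coding genes. SCGN, a calcium-binding protein, stood at 22.2, 19.2 and 21.2 FPKM, the granule protein CHGA at 2.54, 2.27 and 2.05 and the hormone motilin, encoded by MLN, at 2.15, 2.50 and 1.41. NEUROG3, the factor that starts this lineage, had 1 fragment. Among tuft and M cell genes the chemokine CCL20 was at 2.34 ± 0.422 FPKM, LRMP at 2.07 ± 0.113, GP2 at 1.23 ± 0.405 and SPIB at 1.21 ± 0.0321, and GP2 fell short of the call in Control 3. The tuft markers POU2F3 and TRPM5 had 18 and 6 fragments.

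Membrane mucins and defence genes contained 2 abundant members. MUC13, a membrane mucin of the gut, stood at 147, 142 and 136 FPKM and BTNL3, which regulates gamma-delta T cells of the gut, at 123, 96.5 and 91.8. BTNL8, its partner, was at 8.07 ± 0.936 FPKM. In all 4 of 15 genes were expressed, beside 49.1% of all protein-coding genes, and the list median was 0.0287 FPKM. PIGR, which carries immunoglobulin A across the lining, was at 0.00726 FPKM.

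Of 17 mesenchymal genes 9 were expressed (52.9%), a share close to the 49.1% background. FN1, the matrix protein fibronectin, stood at 115, 137 and 148 FPKM, COL6A1 at 94.3, 87.8 and 94.6 and SPARC at 46.9, 47.4 and 49.998. Both stromal cells and liver or fetal epithelia make matrix proteins, and which cells made these was not tested. Defining stromal genes were lower and uneven. COL1A1 was at 5.99, 7.20 and 6.497 FPKM while COL1A2, the other chain of the same collagen, was at 0.0585, 0.167 and 0.151. LUM was at 3.43 ± 0.432 FPKM, COL3A1 at 1.32, 2.41 and 4.10 and DCN at 0.0478. The endothelial list had PECAM1 at 5.55, 6.20 and 6.01 FPKM, followed by KDR at 0.0857 and TEK at 0.0116. CDH5 and VWF, which are more specific to vessels, had 5 and 6 fragments.

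Of the listed blood, neural and muscle genes, 1 met the call, the neural gene NES. PTPRC, the leukocyte antigen CD45, was at 0.0422 FPKM, CD3E at 0.144 and CD68 at 0.0656. NES, an intermediate filament gene, stood at 3.65 ± 0.668 FPKM, TUBB3 was at 0.309 and MAP2 at 0.183. SOX10 had 2 fragments and ELAVL4 and SOX1 none. Among muscle genes TNNT2 was highest at 0.977, 1.67 and 1.30 FPKM, with DES at 0.0539 and ACTC1 at 0.0489. MYH7 had 15 fragments, MYH6 had 1 and MYOD1 none.

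Of 28 phase I genes, which oxidise or otherwise modify drugs, 12 were expressed (42.9%), close to the 49.1% of all protein-coding genes. Of 23 phase II genes, which conjugate drugs, 19 were expressed (82.6%). CYP1A1, an enzyme induced by the aryl hydrocarbon receptor, led phase I at 259, 241 and 317 FPKM, while its neighbour CYP1A2 had 3 fragments. MAOB stood at 89.5, 82.5 and 87.5 FPKM and CYP2S1 at 30.7, 33.8 and 44.4. CYP3A4, the main drug oxidase of the adult intestine and liver, was at 0.0472, 0.0202 and 0.0149 FPKM, 10 fragments in all, with a counting interval of 0.0123 to 0.0473 FPKM. CYP3A5 was at 6.80, 6.49 and 6.499 FPKM, which made its mean 240 times that of CYP3A4, with 144 to 436 times by library. CYP3A43 had 3 fragments, all in Control 1. In phase II, GSTP1 was followed by GSTA2 at 357, 314 and 295 FPKM and GSTA1 at 375, 268 and 260. UGT1A1, at 3.80 FPKM, shares exons with the other UGT1A genes, so its level is uncertain.

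CYP24A1, the best known target of the vitamin D hormone, did not meet the call. Of 16 genes of the vitamin D axis 7 were expressed (43.8%), close to the 49.1% of all protein-coding genes. DHCR7, which uses up the precursor of vitamin D3 for cholesterol, stood at 99.2, 88.9 and 103 FPKM, and CYP27A1, a 25-hydroxylase, at 53.3, 51.3 and 54.7. ATP2B1, the calcium pump of the basal membrane, was at 24.8 ± 1.43 FPKM and CUBN at 6.44 ± 0.453. The receptor VDR was at 3.31, 2.97 and 3.37 FPKM, with its partners RXRA at 12.3 ± 0.221 and RXRB at 5.83 ± 0.376. CYP24A1, which degrades the hormone, had 1 fragment, in Control 3, with a counting interval for the group of up to 0.0113 FPKM. GC also had 1 fragment. The 7 other genes, among them the calcium channel and calcium-binding genes, lay from 0.0238 to 1.06 FPKM.

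Of 11 histone deacetylases, the enzyme family that VPA targets, 7 were expressed (63.6%), beside 49.1% of all protein-coding genes. HDAC1 was highest at 20.5, 20.9 and 21.5 FPKM, followed by HDAC3 at 12.1 ± 0.384 and HDAC6 at 6.31 ± 0.255. HDAC1 stood at 3.63 ± 0.148 times the level of HDAC2. HDAC10, HDAC4, HDAC8 and HDAC9 were below the call, at 0.160 to 0.837 FPKM.

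Gene families were then counted by symbol, with families chosen after the levels were seen. All 19 genes of sterol synthesis were expressed, led by MSMO1 at 322 ± 8.43 FPKM, a demethylase of the later steps. All 3 trefoil factors and 81 of 84 cytosolic ribosomal protein genes were expressed. Of 55 keratins 6 were expressed, and of 17 mucins 2, beside 49.1% of all protein-coding genes. Of 24 claudins, the tight junction proteins, 10 were expressed, led by CLDN6 at 237 ± 21.8 FPKM, a claudin known from embryonic epithelia, above CLDN7 at 186 ± 3.55 and CLDN4 at 129 ± 7.36. Of 20 apolipoproteins 10 were expressed, and together the 20 made up 4.17% ± 0.483 of the summed FPKM.

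The 3 libraries were alike across genes. Across the 9777 expressed genes, which are not independent replicates, log2 FPKM of each pair of libraries had a Pearson r of 0.992 to 0.995. They differed by more than sampling noise, for which a chi-square of about 1 per gene is the mean. The mean chi-square per gene was 19.4 to 27.4 per pair and the median 2.95 to 4.78. The median coefficient of variation was 6.30% over the 5617 genes with a mean of at least 5 FPKM, and it was over 20% for 109 of them, or for 245 without Control 2. In the 109, Control 3 was the library apart on the high side for 37 genes and on the low side for 20, and Control 1 for 28 and 18. Control 1 was apart on the high side for 25.7% of the 109, beside 32.9% of all 5617 genes, and Control 3 for 33.9%, beside 19.9%.

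The 15 genes with the highest coefficient of variation were UQCRHL, BOLA2B, MT1G, FER1L6, DHRS9, MT1E, EIF3C, NPW, APOBEC3C, ARL14, COMMD6, TM4SF4, EDNRB, TGFB1 and MT2A. UQCRHL, BOLA2B and EIF3C have near copies elsewhere in the genome, so that their values may reflect how reads were split. BOLA2B was at 29.98, 29.8 and 1.10 FPKM and shares 91.8% of its 50-base windows with other genes. Among them were 3 metallothioneins, which bind zinc and copper. MT1G stood at 12.5, 29.3 and 46.4 FPKM, MT1E at 3.61, 7.45 and 8.77 and MT2A at 6.99, 13.9 and 13.6, and each was lowest in Control 1. The summed level of the 6 expressed metallothioneins was 34.8, 67.4 and 93.6 FPKM, with MT1G the largest part. Of these 6, MT1X was lowest in Control 2, at 1.59, 1.32 and 1.97 FPKM, and MT2A was highest in Control 2. Among the others, TM4SF4, a membrane protein, was at 28.2, 32.3 and 53.7 FPKM and TGFB1, a growth factor, at 16.5, 17.7 and 29.6, both highest in Control 3.

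Some programmes tilted by library. Of 81 expressed ribosomal protein genes 78 were highest in Control 1, and of 13 mitochondrially encoded genes 11 were highest in Control 3. Over all expressed genes 4450 of 9777 were highest in Control 1 and 3587 in Control 3. Epithelial genes were highest in Control 3 in 13 of 15 cases, and intestinal transcription factors in 17 of 27. The summed level of the lipid absorption genes was 11011, 10332 and 8786 FPKM, lowest in Control 3, where AGR2 was highest. APOA1 was the largest part of the lipid absorption sum, at 7626, 6991 and 6136 FPKM. Of the 19 expressed lipid absorption genes, 11 were highest in Control 1, 3 in Control 2 and 5 in Control 3. The summed brush border level was 789, 782 and 839 FPKM and moved little. What sets these libraries apart was not tested.

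**Figure D5:**
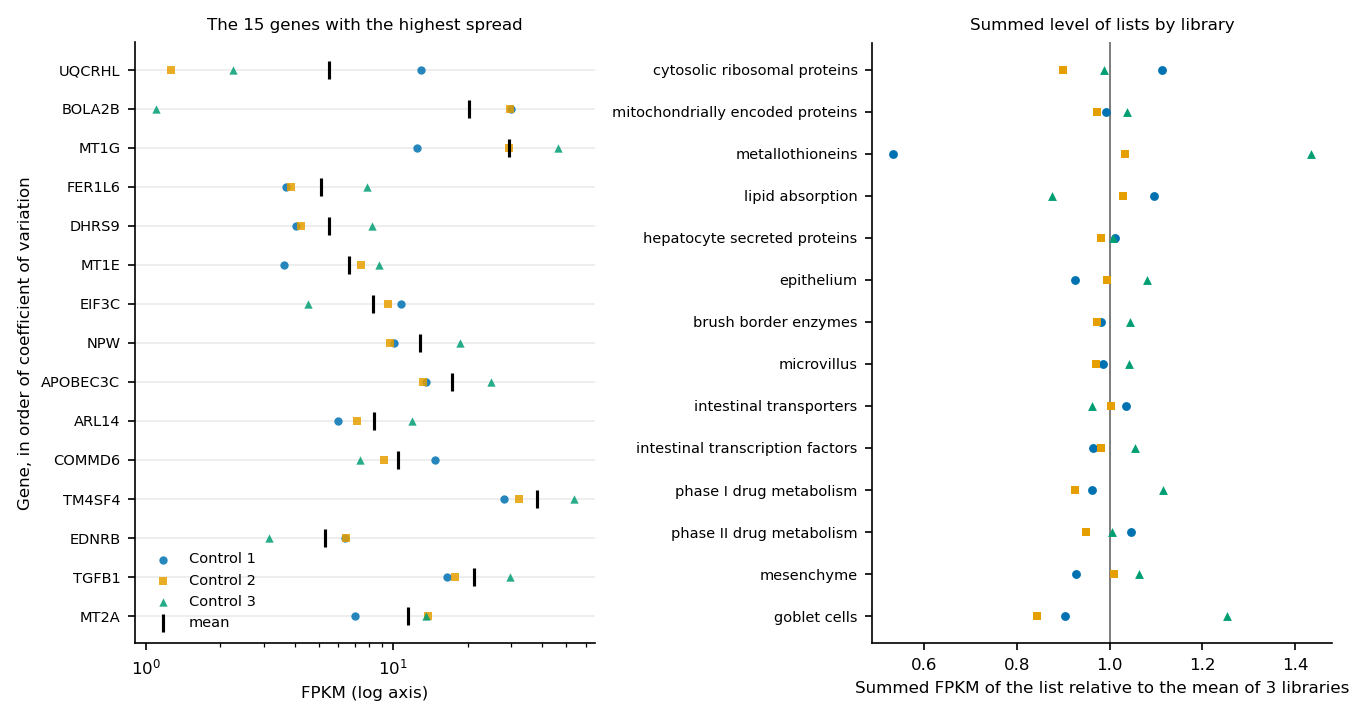
Left, FPKM on a log axis for the 15 genes with the highest coefficient of variation, with points for the 3 Control libraries and bars for their mean; right, summed FPKM in each library of the measured genes of each list shown, or of the expressed genes of the metallothionein, ribosomal and mitochondrial families, relative to the mean of the 3 libraries. Metallothioneins are spread most widely among the 14 groups of genes shown, at 34.8, 67.4 and 93.6 FPKM, and hepatocyte secreted proteins the least, at 41614, 40443 and 41476.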

How the data were processed

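RNA was measured in 12 libraries, of which the 3 Control libraries were used. The deposited table holds FPKM values per gene and library, made by the authors, and gene lengths, per the file headers. Genome build GRCh38.p13 and the tools DESeq2 1.20.0, HISAT2 2.0.5 and featureCounts 1.5.0-p3 are listed, without roles, per the submitters' processing notes. Strand handling is not given in the sources used here, so reads of a gene and its antisense partner cannot be told apart. All 58735 genes match GENCODE release 29 in identifier, start, end and summed exon length. Union lengths lower the FPKM of genes that use few of their exons.

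Multiplying FPKM by length and a library constant yielded integers in 100% of cases, to a tolerance of 0.01. These were used for counting intervals (95%, exact Poisson), which cover counting error only, and for the level that 0 fragments allows (3 fragments over the group). A gene at 1 FPKM in every library was called expressed. No test was run, since 1 group is described. Percent of exonic bases in other genes and of shared 50-base windows came from GENCODE. Scripts used Python 3.11.15, numpy 2.4.6, pandas 2.3.3, SciPy 1.17.1 and matplotlib 3.10.9, and were tested on simulated data. Promoters are from RefSeq, GRCh38.p14.

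The 36 lists (509 genes) were chosen with earlier results of these data known. Genes named are the 30 highest, the 3 highest and the defining markers of each list, expressed members of the vitamin D, CYP3A and HOX sets and those with up to 3 fragments, the 15 most variable genes with a mean of at least 5 FPKM and the 5 highest non-coding genes. Others were named after their values were seen. Genes of chromosome Y and XIST were left out, and some members of the lists are not reported here by name. Alternatives changed the minimum, the scaling, the ranking measure, the gene classes and the libraries, and genes overlapped by at least 50% were left out in 1 alternative added after seeing the data.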

Additional observations from a re-analysis of the deposited data

How the results depend on the processing

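No paired analysis was possible because the results come from no test and 1 group. The expressed count, 9777, ran from 8140 (minimum of 2 FPKM) to 13573 (at least 10 fragments in every library), and 246 listed genes ran from 217 to 349 under these. Leaving out a library gave 9834 to 9865 and 247 to 251. Of the 30 highest genes, 18 remained without mitochondrially encoded genes, 23 by fragments not divided by length, 27 over all gene classes, and 30 without any single library. Genes with a coefficient of variation over 20% numbered 109, against 250 as TPM and 362 with a mean of at least 1 FPKM, which both admit lower genes, and 31 with a mean of at least 20 FPKM. Leaving out a library gave 86 to 245, and 245 was without Control 2, for which the cause was not tested. Counts of single lists moved beyond 1.5 times in 23 of 36 lists at 10 fragments, in 7 as TPM and in 6 at a minimum of 0.5 FPKM. TPM rescales every level, and own-total scaling moved 12 of the 30 highest levels beyond 1 SD. With 3 libraries an SD is itself imprecise.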

Other observations

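Non-coding genes were a small part of these poly-A selected libraries. The 5 highest were the mitochondrial transfer RNAs MT-TC at 5487, 4547 and 4492 FPKM and MT-TN at 3780, 3232 and 3276, the mitochondrial ribosomal RNAs MT-RNR2 at 2181 ± 9.65 and MT-RNR1 at 538 ± 24.5, and RPS2P5 at 462 ± 59.99, a processed pseudogene of a ribosomal protein, whose reads cannot be told apart with certainty from those of its parent gene. The transfer RNA genes are 66 and 73 bases long, and division by so short a length raises their FPKM. Of 13754 long non-coding genes, 497 (3.61%) reached 1 FPKM in every Control library. The highest, chosen after their values were seen, were the snoRNA host SNHG8 at 103, 79.5 and 77.7 FPKM, LRRC75A-AS1 at 81.1, 68.2 and 77.1 and the growth-arrest transcript GAS5 at 63.9, 50.4 and 52.6. Each was highest in Control 1. NORAD stood at 53.9 ± 3.33 FPKM and MALAT1, a nuclear transcript, at 26.5 ± 3.21.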
